A study of Mus musculus with 24 samples.

Results

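The first day of adipogenic induction was followed in siCon cells, that is in 3T3-L1 pre-adipocytes that carry a control siRNA. All 4 siCon libraries of 24 h were compared with all 4 siCon libraries of 0 h, which makes 8 of the 24 libraries of the series. The libraries were chosen by their labels alone, and every locus of the deposited table entered the comparison. 3T3-L1 is a mouse fibroblast line that stores fat after hormonal induction. The study asked how 14-3-3ζ, an adaptor protein, acts on fat cell formation, and also sequenced cells that received an siRNA against 14-3-3ζ (si14-3-3ζ) and cells at 48 h of induction.

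Cells of passage 12 to 15 were seeded at 90000 per well of a 12-well plate, in medium with 25 mM glucose and 10% newborn calf serum, and transfected with the control siRNA. The 0 h libraries hold RNA taken 24 h after transfection, when induction began. The 24 h libraries hold RNA of cells that had then spent a day in 172 nM insulin, 500 µM IBMX, which blocks the breakdown of cAMP, and 500 nM dexamethasone, a synthetic glucocorticoid, with 10% fetal bovine serum and 25 mM glucose. The cocktail, the change of serum, the time since transfection and the time in culture therefore move together and cannot be told apart, and both groups carry the transfection. The labels number 4 replicates in each group. The study speaks of independent experiments for its data in general, but the labels do not say whether these libraries came from separate cultures. The p-values therefore speak only to the variation among libraries, part of which may be technical. That variation was pooled within groups over all 24 libraries of the series, also those not compared here.

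Growth-arrested 3T3-L1 cells answer the cocktail with a short return to the cell cycle, known as mitotic clonal expansion, before they take on a fat cell's programme. Dexamethasone acts through the glucocorticoid receptor, IBMX through cAMP and the factor CREB, and insulin through its own and the IGF1 receptor. The early factors C/EBPβ and C/EBPδ are known to act before PPARγ and C/EBPα, which then switch on the genes of lipid storage.

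Expression was measured by RNA-Seq and given as FPKM, that is fragments per kilobase of a transcript relative to all fragments mapped in the library, which allows levels of different genes to be compared per length. No read counts were used here, and how precisely a single FPKM was counted is therefore not known. The table lists 9262 loci, picked by a rule that the sources used here do not give. The highest of the 6 group means was at least 1.45 FPKM at every listed locus and at least 1.18 times the lowest, so the list is already selected for change, and a gene that is not listed need not be silent. Loci with at least 1 FPKM in at least 4 libraries, 9251 in all, were tested with limma on log2(FPKM + 1), a scale on which changes at a low FPKM come out too small. A locus was called where the Benjamini-Hochberg adjusted p over these loci was under 0.05.

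The 8 libraries were alike in the sum of listed FPKM (515950 to 606137), and 15 to 73 loci stood at 0 in each. Correlations within a group ran from 0.981 to 0.9928 over the loci. In a principal component analysis, 80.52% of the variance lay on component 1, which set the 4 libraries of 0 h (-45.47 to -36.61) apart from the 4 of 24 h (40.61 to 41.81). Component 2, with 7.377%, set the libraries numbered 1 and 3 (7.106 to 16.5) apart from those numbered 2 and 4 (-14.44 to -10.04) at both times. No label says what the numbers stand for. As a description, since the calls were made from these same libraries, 5932 of the 5938 called loci moved in the same direction within the libraries numbered 1 and 3 as within those numbered 2 and 4.

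Most of the listed loci differed between 0 h and 24 h. Of the 9251 loci, 5938 were called (64.2%), 2848 of them higher (30.8%) and 3090 lower (33.4%) at 24 h. More than 2-fold rises were called at 691 loci (7.47%) and more than 2-fold falls at 982 (10.6%). At 2376 loci (25.7%) every 24 h library lay above every 0 h library, and at 2658 loci (28.7%) every one lay below. The median log2 fold change over all tested loci was -0.03, with the 25th percentile at -0.49 and the 75th at 0.39. The counts of each gene list are to be read against 30.8% called higher and 33.4% called lower, also where these shares are not repeated. In bulk RNA, fewer cells of a kind and less RNA per cell cannot be told apart, here and in all that follows.

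**Figure D1:**
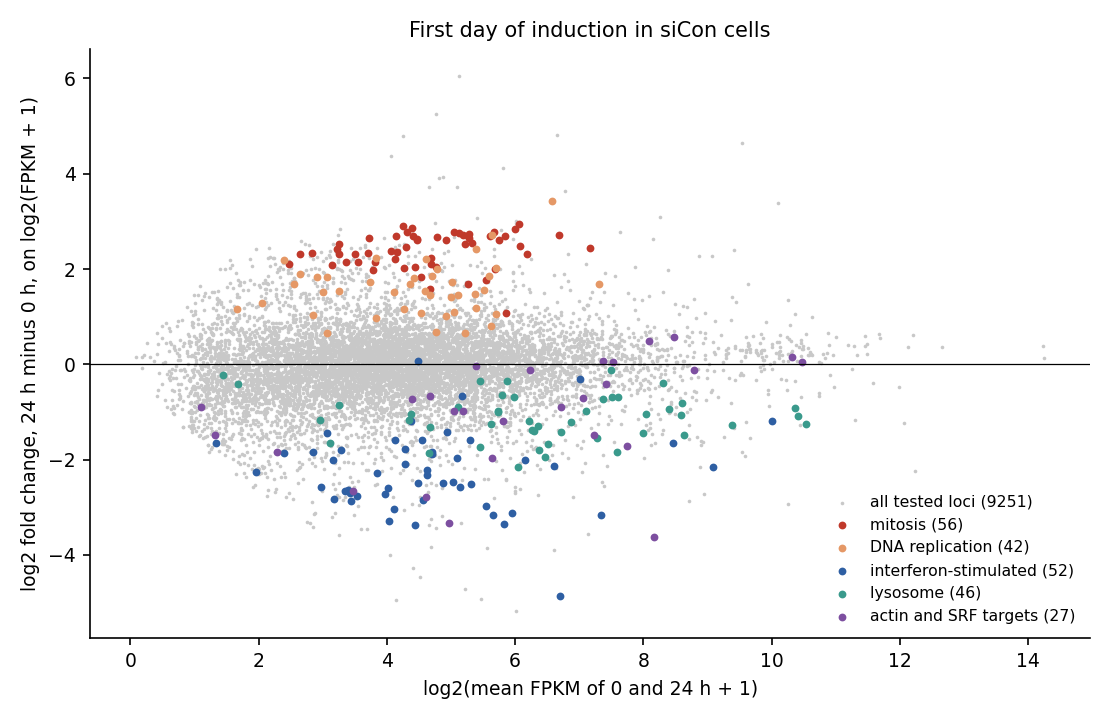
Log2 fold change from 0 to 24 h in siCon cells (y axis) against the log2 of the mean FPKM of both times plus 1 (x axis) for the 9251 tested loci, with members of 5 gene lists in colour. All 56 mitosis and 42 DNA replication genes lie above 0, and 51 of 52 interferon-stimulated and all 46 lysosome genes below it, over a wide range of levels.

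The largest rise among genes with 1 symbol was that of Ramp3, a partner of the calcitonin-like receptor for adrenomedullin. Its FPKM were 0.43, 0.324, 0.532 and 0.252 at 0 h and 49, 55.7, 52.2 and 50.9 at 24 h, a 135-fold difference of the means (log2 fold change 5.26, SE 0.18, limma adjusted p = 1.1e-15). Il11, a cytokine of the IL-6 family, went from 0.402, 0.643, 0.516 and 0.245 to 46.3, 22.1, 39.1 and 17 FPKM (log2 fold change 4.37, SE 0.27, limma adjusted p = 4.0e-12). At both genes every induced library was far above every library of 0 h. Il11 then stood at 2.88 ± 0.987 FPKM at 48 h, against 31.1 ± 13.9 at 24 h.

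Further genes among the 12 largest rises were of varied function. Krt13, a keratin, averaged 0.281 ± 0.261 FPKM (mean ± SD, n = 4 here and below) before and 35.9 ± 12.7 after induction. Nr4a1, an orphan nuclear receptor induced by cAMP, went from 2.57 ± 0.597 to 54.1 ± 12.1 FPKM. Prg4, the lubricant proteoglycan lubricin, went from 2.57 ± 0.693 to 51.9 ± 6.47, Alpl, the tissue-nonspecific alkaline phosphatase, from 2.78 ± 1.79 to 45.6 ± 17.1, and Spon2, a secreted matrix protein, from 3.81 ± 0.441 to 62.3 ± 8.57. Rrm2, the small subunit of ribonucleotide reductase, Fosl1, a partner of Jun in AP-1, the mitotic kinase Pbk and the survivin gene Birc5 were also among them, with log2 fold changes of 3.43, 3.06, 2.96 and 2.94. Some loci without a gene symbol moved as far, and 134 such loci were tested but are not described.

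The largest fall was that of Mmp13, a collagenase. Its FPKM were 82.8, 144, 94.3 and 180 at 0 h and 1.31, 4.06, 1.37 and 3.4 at 24 h (log2 fold change -5.18, SE 0.23, limma adjusted p = 1.6e-14), so that no induced library came near an uninduced one. Ubd, an interferon-inducible ubiquitin-like modifier, went from 39, 23.8, 41.1 and 28.8 to 0.204, 0, 0 and 0.15 FPKM (log2 fold change -4.94, SE 0.18, limma adjusted p = 1.2e-15). Ifit3, an antiviral gene, went from 195, 227, 163 and 215 to 8.52, 4.29, 8.98 and 3.38 (log2 fold change -4.87, SE 0.28, limma adjusted p = 1.4e-12). All these libraries too were separated by time, with the 24 h values of Ifit3 highest in the libraries numbered 1 and 3.

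The other 9 of the 12 largest falls included genes of the matrix and a cytoskeletal actin. Mamdc2, a secreted protein of the matrix, fell from 85 ± 8.22 to 1.86 ± 0.42 FPKM, Ogn, the small leucine-rich proteoglycan osteoglycin, from 42.8 ± 6.06 to 1.02 ± 0.497, and Mmp3, stromelysin, from 182 ± 93.8 to 11.6 ± 7.07. Acta2, smooth muscle actin, fell from 528 ± 36.6 to 42.5 ± 9.85. The chemokine gene Ccl9, the aldo-keto reductase gene Akr1c14, the neuropeptide Y receptor gene Npy1r, the iron exporter gene Slc40a1 and the melanocyte antigen gene Mlana had log2 fold changes of -3.86, -4.26, -3.99, -3.83 and -3.58. Ifit3, Akr1c14 and, further on, Gstm1, Saa3 and the Orm genes have close relatives in the genome between which reads could be split, and their values are less certain for that reason.

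**Figure D2:**
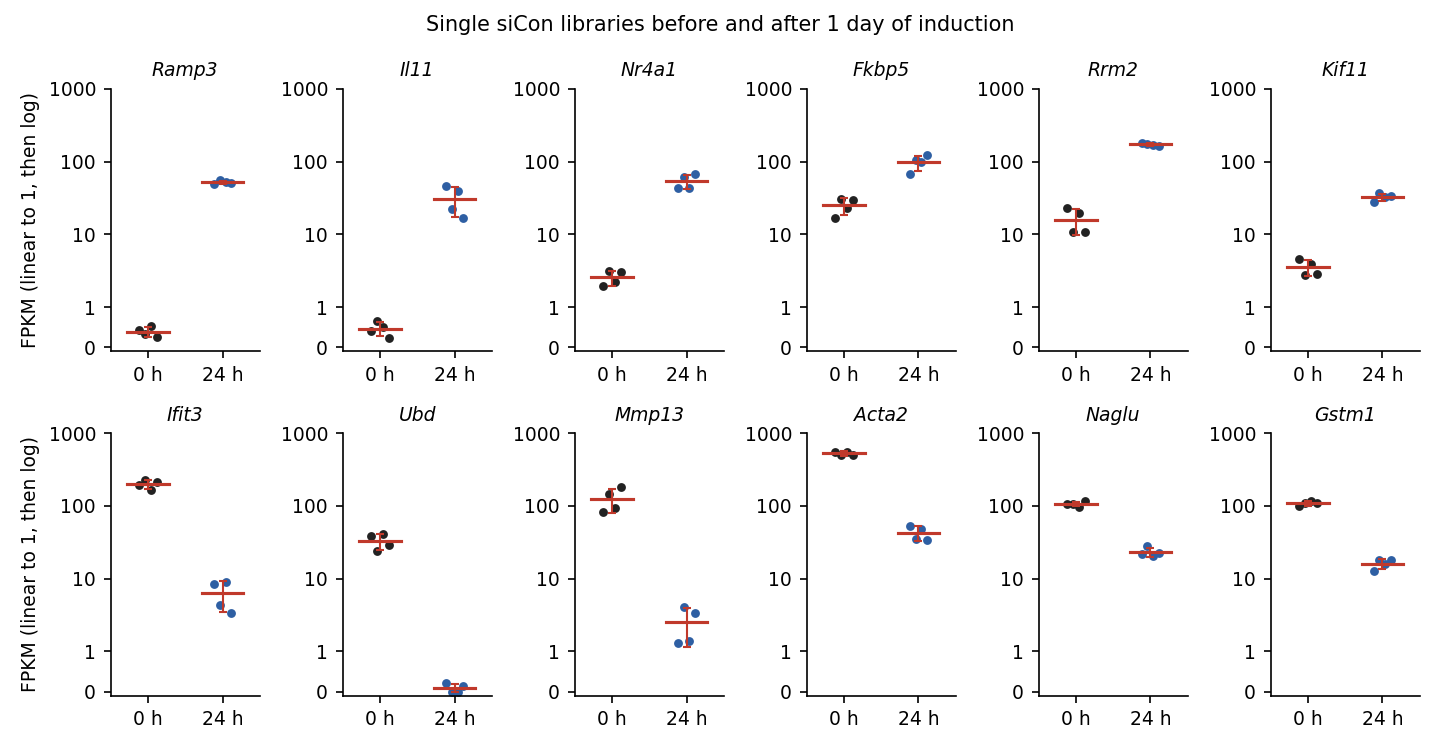
FPKM of 12 genes in each siCon library at 0 h and 24 h (y axis linear up to 1 and logarithmic above), with a dot for each of 4 libraries, a red line for the mean and bars for 1 SD. In none of the 12 genes did the libraries of the 2 times overlap.

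Genes of cell division rose together. All 42 tested genes of DNA replication and nucleotide supply were called higher (median log2 fold change 1.54), and so were all 56 tested genes of mitosis (median 2.45), against 30.8% of all loci. At every one of these genes the 4 libraries of 24 h lay above the 4 of 0 h, which held for 25.7% of all loci. The smallest log2 fold change was 0.65 in replication and 1.08 in mitosis. The summed FPKM of the mitosis genes was 463 to 584 per library at 0 h and 2460 to 3400 at 24 h.

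Among replication genes, Rrm2 had the largest change, from 22.8, 10.7, 19.5 and 10.7 to 183, 176, 171 and 162 FPKM (log2 fold change 3.43, SE 0.19, limma adjusted p = 3.7e-13). Mcm5, a subunit of the replicative helicase, went from 13.3, 10.1, 13.9 and 11.6 to 60.8, 74.1, 70.6 and 73 (log2 fold change 2.42, SE 0.12, limma adjusted p = 8.0e-14). Tk1, thymidine kinase, rose from 12.3 ± 1.25 to 85.8 ± 8.97, Pcna, the sliding clamp of DNA polymerase, from 75 ± 9.19 to 242 ± 15.8, and Cdc6, which loads the helicase at origins, from 0.894 ± 0.211 to 7.67 ± 1.2. For Rrm2, the libraries numbered 1 and 3 were the higher ones at 0 h, while all 4 lay close together at 24 h.

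Of the mitotic genes, Kif11, the motor that pushes spindle poles apart, went from 4.56, 2.76, 3.91 and 2.82 to 27.6, 36.9, 32.2 and 33.3 FPKM (log2 fold change 2.91, SE 0.12, limma adjusted p = 9.7e-15). Nuf2, a kinetochore protein, rose from 4.08 ± 0.669 to 36 ± 4.3, Birc5, which guides the chromosomal passenger complex, from 14.3 ± 2.7 to 117 ± 24.6, and Prc1, which bundles midzone microtubules, from 8.53 ± 1.08 to 62.6 ± 14.5. Cdk1, the kinase that drives entry into mitosis, rose from 43.7 ± 9.97 to 241 ± 44.7, Cdc20, an activator of the anaphase-promoting complex, from 14.2 ± 1.92 to 91.8 ± 14.3, and Mki67, the Ki-67 antigen, from 3.31 ± 0.457 to 18 ± 1.89. During the second day none of the 56 rose further and 55 were called lower, against 17.4% of all loci (13.3% higher). That comparison shares the 24 h libraries with the first day, so a chance high value at 24 h enters both.

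Promoters of these genes are shown because they rose together. RefSeq promoters (build GRCm38.p6, another build than the NCBIM37 of the FPKM) were searched on both strands in the 250 bases before the start site. An E2F site, written as TTTGGCGC, TTTCCCGC, TTTCGCGC or TTTGCCGC, was in 9 of the 34 replication genes with a promoter (26.5%), against 2.16% of all 27025 genes. The cell cycle homology region (CHR), TTTGAA, was in 17 of 44 mitosis genes (38.6%) and, since it is a short word, in 18.3% of all genes. A match describes these letters only and was not tested for function. The 27025 genes are a wider set than the 9251 tested loci, so the shares compared here and below differ in more than the list. The stretches below run 5′ to 3′ on the gene's strand with the match in capitals (in Cdc6 it reads on the opposite strand, and in Mcm5 a further match on the opposite strand overlaps it and runs on into the lower case), for Mcm5 at chr8:75109326-75109393 (plus strand), Cdc6 at chr11:98907983-98908050 (plus), Prc1 at chr7:80294416-80294475 (plus) and Cdc20 at chr4:118437344-118437391 (minus).
Mcm5: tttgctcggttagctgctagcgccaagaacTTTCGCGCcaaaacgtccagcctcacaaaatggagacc
Cdc6: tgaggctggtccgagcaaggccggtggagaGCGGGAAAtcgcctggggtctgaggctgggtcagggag
Prc1: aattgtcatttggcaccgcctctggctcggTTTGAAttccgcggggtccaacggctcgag
Cdc20: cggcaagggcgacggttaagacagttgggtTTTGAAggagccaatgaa

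The regulators of G1 were less uniform. Of 21 tested cyclins, kinases, E2F and Rb factors, 14 were called higher (30.8% of all loci) and 2 lower (33.4%). Ccne2, the cyclin that starts S phase, rose from 3.36 ± 1.06 to 19.3 ± 2.54 FPKM, E2f8, a repressive E2F factor, from 1.22 ± 0.415 to 7.71 ± 1.68, and Myc from 21 ± 2.42 to 72.2 ± 6.62. Ccnd2 (log2 fold change -0.65) and Cdk6 (-0.49), a cyclin and a kinase of early G1, fell.

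Inhibitors of cyclin-dependent kinases moved in both directions. Cdkn2a, which encodes p16 and p19ARF, went from 557, 679, 589 and 683 to 186, 227, 203 and 232 FPKM (log2 fold change -1.56, SE 0.10, limma adjusted p = 7.4e-12), with no overlap. Cdkn1a, which encodes p21, fell from 116 ± 17.9 to 81.2 ± 8.32, and Cdkn2c, which encodes p18, from 32.9 ± 4.21 to 24.5 ± 0.833, a fall that did not pass without 0 h replicate 4 (limma adjusted p = 0.0757). Cdkn1b, which encodes p27 and is a gene the study followed, was at 34.3, 36.3, 32.8 and 39.1 FPKM at 0 h and 31.9, 30, 29.9 and 33.5 at 24 h. These values overlapped and the difference did not pass the test (log2 fold change -0.18, SE 0.09, limma adjusted p = 0.0932). Cdkn2d, which encodes p19INK4d, and Cdkn3, a phosphatase of Cdk1 and Cdk2 that rises in dividing cells, were higher at 24 h, with log2 fold changes of 1.20 and 1.67. Cdkn2b stands at 2 loci, both called lower (log2 fold changes -1.96 and -1.56).

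Targets of p53, which arrest the cell cycle or start cell death after damage, were mostly lower, with 13 of 17 tested called lower (33.4% of all loci) and 2 higher (30.8%), and a median of -0.72. Fas, the death receptor, fell from 48.6 ± 5.86 to 15.4 ± 2.41 FPKM, Gadd45a, a growth arrest gene, from 114 ± 4.67 to 37.3 ± 2.9, and Plk2 from 42.5 ± 4.6 to 14.2 ± 3.91. The list of 17 includes Trp53, p53 itself, so that the 2 called higher were Trp53 and the target Aen, a nuclease. Trp53 rose from 66.7 ± 4.72 to 85.6 ± 2.6 (log2 fold change 0.36, SE 0.07, limma adjusted p = 1.3e-04). Aen was just inside the threshold (limma adjusted p = 0.0495) and outside it in 7 of the 8 fits that leave out a library (0.0565 to 0.148).

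Known targets of each component of the cocktail were examined next. Of 21 tested glucocorticoid targets, 14 were called higher (66.7%, against 30.8% of all loci) and 6 lower (28.6%, against 33.4%), with a median of 0.83. Fkbp5, a chaperone that holds back the glucocorticoid receptor, went from 16.8, 30.3, 23.3 and 30 to 66.7, 105, 99.5 and 122 FPKM (log2 fold change 1.93, SE 0.25, limma adjusted p = 4.5e-07), every induced library being above every uninduced one. Ddit4, an inhibitor of mTORC1, rose from 38.1 ± 5.61 to 110.4 ± 13.1, Mt2, a metallothionein, from 361 ± 57.5 to 969.5 ± 153, and Tsc22d3, known as GILZ, from 21.2 ± 1.23 to 39.8 ± 5.76. Zbtb16, an early target in fat cell formation, rose from 2.64 ± 0.728 to 6.43 ± 0.584.

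The 6 members that fell included Anxa1, annexin A1, from 672 ± 46 to 235 ± 27 FPKM, Pdk4, a brake on pyruvate oxidation, from 17 ± 2.32 to 6.24 ± 1.69, and Lcn2, the acute-phase protein lipocalin-2, from 1156 ± 201 to 802 ± 157. Lcn2 and Cebpd, another of the 6, are also known to answer inflammatory signals. Fkbp5 was higher again at 48 h (199 ± 52.4 FPKM, log2 fold change of the second day 1.00, limma adjusted p = 0.00347), as was Tsc22d3 (95.4 ± 28.1, 1.20, 5.7e-05).

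Of 18 tested cAMP targets, 13 were called higher (30.8% of all loci) and 3 lower (33.4%), with a median of 1.05. Nr4a1 went from 1.93, 3.12, 2.19 and 3.03 to 44, 61.9, 43.6 and 67 FPKM (log2 fold change 3.94, SE 0.23, limma adjusted p = 8.8e-13), without overlap. The phosphodiesterase genes, which break down cAMP and are the target of IBMX, differed among themselves. Pde4b rose from 4.82 ± 0.591 to 29.6 ± 2.42, Pde4d from 5.08 ± 0.617 to 24.1 ± 4.13 and Pde3b from 0.397 ± 0.318 to 1.53 ± 0.197, while Pde4a fell from 4.56 ± 0.38 to 2.66 ± 0.34. Atf3 and Ppargc1a, also known to answer cAMP, fell, with log2 fold changes of -1.50 and -1.16. The cAMP response element TGACGTCA was in 1 of 14 promoters of these genes (7.14%) and in 1.77% of all genes and is therefore not described for the list. The 1 gene was Dusp1, a phosphatase of MAP kinases that rose from 9.06 ± 1.16 to 20.5 ± 1.91, shown at chr17:26508578-26508645 (minus strand, GRCm38.p6) with the element in capitals.
Dusp1: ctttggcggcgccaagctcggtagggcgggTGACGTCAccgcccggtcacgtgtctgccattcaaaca

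Of 26 tested genes of insulin signalling, 12 were called lower, against 33.4% of all loci, and 6 higher, against 30.8%. Irs1, an insulin receptor substrate, went from 7.39, 6.7, 6.58 and 6.77 to 1.5, 1.75, 1.1 and 1.4 FPKM (log2 fold change -1.69, SE 0.12, limma adjusted p = 4.0e-11) and did not overlap. Grb14, an adaptor that inhibits the insulin receptor, fell from 27.3 ± 7.65 to 6.19 ± 1.01, the insulin receptor gene Insr from 8.88 ± 1.82 to 5.77 ± 1.28, and Igf2 from 20.9 ± 13.6 to 7.13 ± 3.79. The libraries of Insr and Igf2 overlapped between the times, and the fall of Igf2 did not pass without 0 h replicate 2, 0 h replicate 4 or 24 h replicate 1 (limma adjusted p = 0.0756, 0.0752 and 0.0751). Igfbp4, a binding protein of IGFs, rose from 161 ± 46.7 to 469 ± 163, and Hk2, hexokinase 2, from 31.4 ± 5.87 to 46.3 ± 5.91.

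Of 26 immediate-early and ERK feedback genes, 9 were called higher and 7 lower, shares close to those of all loci (30.8% and 33.4%). Fosl1 rose from 7.91 ± 0.318 to 74.6 ± 15 FPKM, Egr2, a factor that promotes fat cell formation, from 1.05 ± 0.334 to 5.75 ± 1.18, and Junb from 44.6 ± 4.42 to 129 ± 19.8. Maff, a small Maf factor, and Spred3, an inhibitor of Ras signalling, fell by 0.72 and 1.04 on the log2 scale.

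The transcription factors of fat cell formation did not move together. Of 18 tested factors that promote it, 7 were called higher (30.8% of all loci) and 7 lower (33.4%), with a median of -0.10. Klf5, which acts early upstream of PPARγ, went from 2.87, 2.87, 3.45 and 3.26 to 18.7, 35.4, 17.3 and 32.4 FPKM (log2 fold change 2.65, SE 0.26, limma adjusted p = 5.5e-09), with the libraries numbered 2 and 4 the higher ones at 24 h and no overlap. Cebpa, C/EBPα, went from 3.45, 3.2, 4.67 and 3.89 to 11, 6.23, 9.78 and 6.69 (log2 fold change 0.95, SE 0.25, limma adjusted p = 0.00256). Cebpd, C/EBPδ, went the other way, from 72, 103, 65.2 and 96 to 28.5, 38.7, 29.1 and 44.6 (log2 fold change -1.23, SE 0.15, limma adjusted p = 2.8e-07). Neither Cebpa nor Cebpd overlapped between the times.

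Pparg, the master factor of fat cells, was at 60.6, 42.8, 56.4 and 39.6 FPKM at 0 h and 64.7, 41.2, 68.7 and 45.8 at 24 h. These values overlapped, and the difference did not pass the test (log2 fold change 0.13, SE 0.21, limma adjusted p = 0.59). Cebpb, C/EBPβ, shares its locus with a predicted gene, A530013C23Rik, from which it cannot be told apart, and the locus rose from 107 ± 22.2 to 209 ± 27.2 FPKM. Zfp467, another promoting factor, and Klf6 fell, with log2 fold changes of -1.29 and -1.11. By 48 h Pparg stood at 118 ± 30.5 and Cebpa at 57.4 ± 16.1 FPKM, with second-day log2 fold changes of 1.09 and 2.62 (limma adjusted p = 3.9e-04 and 1.3e-07), while Klf5 did not pass on the second day (0.33, adjusted p = 0.353). Cebpd was at 69 ± 14.8 FPKM, above its level at 24 h (0.95, 5.7e-05).

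Factors that hold back fat cell formation were lower in 8 of 15 cases (33.4% of all loci) and higher in 2 (30.8%). Ddit3, which encodes the C/EBP partner CHOP, fell from 172 ± 36.4 to 70.6 ± 15 FPKM and Klf2 from 3.69 ± 1.28 to 1.03 ± 0.331. Hes1, a Notch target, rose from 13.7 ± 3.15 to 26.3 ± 3.09 and Nr2f2, COUP-TFII, from 25.9 ± 3.28 to 40.7 ± 1.82. Dlk1, known as Pref-1, was at 703, 883, 737 and 905 FPKM before and 568, 807, 623 and 781 after the first day and did not pass (log2 fold change -0.22, SE 0.13, limma adjusted p = 0.145). With the replicate number as a block or with quantile normalization it passed as a fall (adjusted p = 0.00235 and 7.2e-04).

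Lipid storage genes included both rises and falls on the first day. Of 27 tested, 13 were called higher (30.8% of all loci) and 5 lower (33.4%), with a median of 0.15. A further 13 members were not listed and 1 stands at a shared, repeated or untested locus. Lpl, which frees fatty acids from lipoproteins, went from 1004, 1246, 1261 and 1338 to 325, 291, 361 and 290 FPKM (log2 fold change -1.93, SE 0.24, limma adjusted p = 3.9e-07). Plin2, a coat protein of lipid droplets found in many cell types, went from 213, 199, 237 and 158 to 57.8, 53.1, 66.5 and 55.8 (log2 fold change -1.76, SE 0.13, limma adjusted p = 9.9e-11). Neither gene's libraries overlapped. Plin3, another droplet protein, fell from 92.9 ± 7.07 to 41.1 ± 4.58.

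Cidec, which fuses lipid droplets in fat cells, went from 2.05, 0.56, 2.76 and 0.659 to 15.3, 3.03, 15.1 and 5.67 FPKM (log2 fold change 1.97, SE 0.43, limma adjusted p = 3.6e-04), with the libraries numbered 1 and 3 the higher ones at both times. G0s2, an inhibitor of triglyceride lipase, rose from 0.475 ± 0.525 to 4.09 ± 2.18, Retn, which encodes resistin, from 0.39 ± 0.391 to 3.67 ± 2.51, and Lipe, hormone-sensitive lipase, from 7.12 ± 0.557 to 20.9 ± 2.45. Fabp4, the fat cell fatty acid binding protein, was at 422, 281, 464 and 239 FPKM at 0 h and 294, 89.6, 312 and 115 at 24 h. Those values overlapped, with the libraries numbered 1 and 3 the higher ones at both times, though the fall passed the test (log2 fold change -0.95, SE 0.39, limma adjusted p = 0.0366). It did not pass without replicate 1 or 3 of 0 h (adjusted p = 0.0885 and 0.104) or without replicate 2 or 4 of 24 h (0.164 and 0.122). With only the libraries compared or with quantile normalization the fall of Fabp4 did not pass either (limma adjusted p = 0.0575 and 0.0715). Adipoq, adiponectin (2.19 ± 1.82 to 0.881 ± 0.676, adjusted p = 0.268), and Cd36, a fatty acid transporter (26.9 ± 21.8 to 15.4 ± 12.9, 0.274), did not pass (limma). Plin1, the droplet coat protein of mature fat cells, shares a locus with Pex11a that did not pass either (limma adjusted p = 0.227).

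On the second day, a comparison with the same 24 h libraries, 23 of the 27 were called higher, against 13.3% of all loci, and 0 lower, against 17.4%. At 48 h Fabp4 stood at 2173 ± 1300 FPKM, Cidec at 60.6 ± 29.4, G0s2 at 40.1 ± 21.5, Lipe at 94.8 ± 13.6 and Lpl at 523 ± 136. Of these, Lpl was still under its level of 0 h. The summed FPKM of the list was 2610 to 3000 per library at 0 h, 2040 to 2320 at 24 h and 4430 to 9030 at 48 h.

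**Figure D3:**
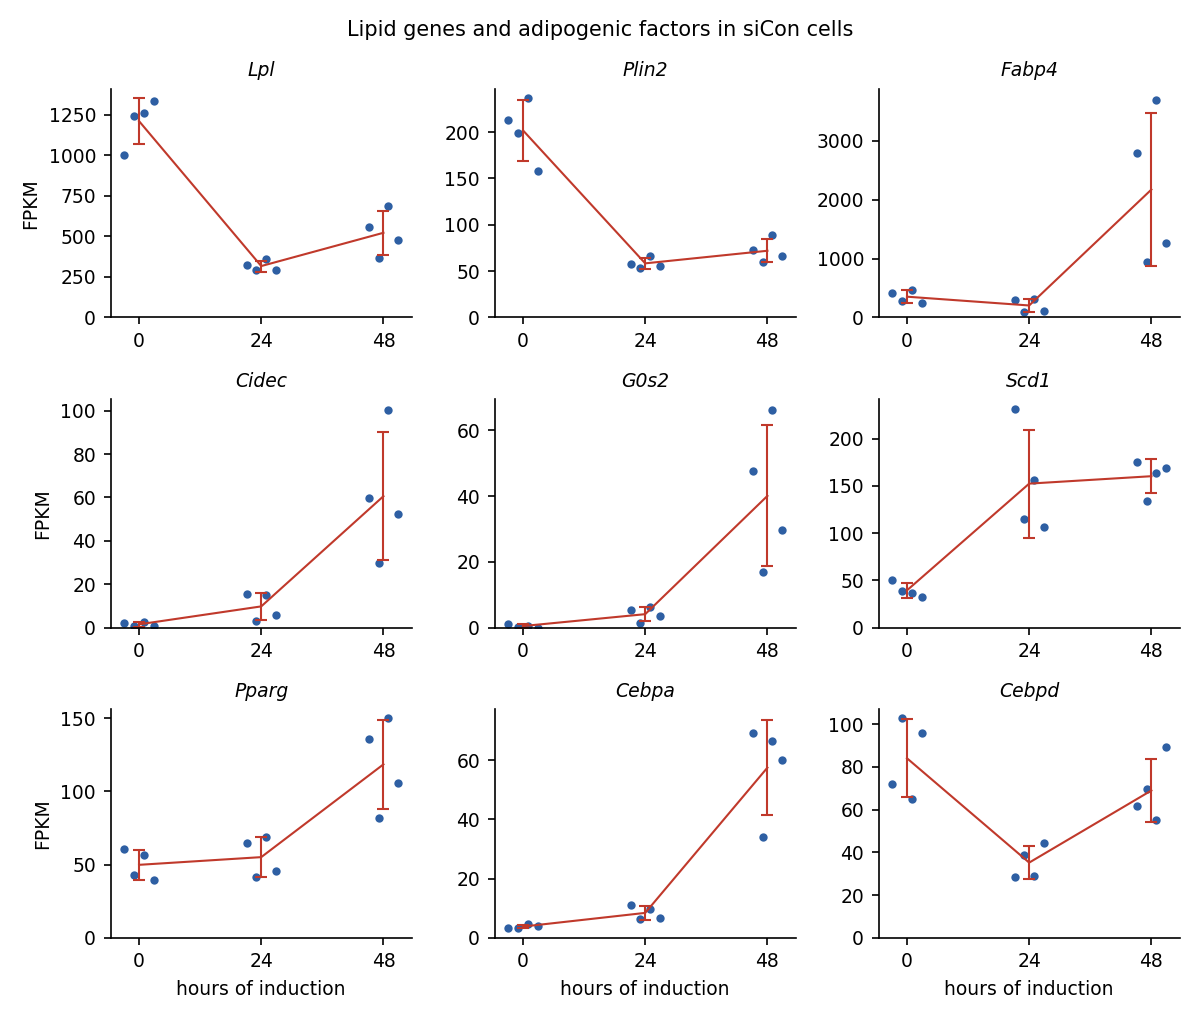
FPKM of 9 genes of lipid handling and fat cell formation in siCon cells (y axis, linear) at 0, 24 and 48 h of induction (x axis), with a dot for each of 4 libraries, a line through the means and bars for 1 SD. Lpl, Plin2 and Cebpd were lowest at 24 h, Scd1 and Cebpa had risen by then, and the libraries of Pparg overlapped between 0 and 24 h.

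Fatty acid synthesis was divided, with 6 of 14 called higher (30.8% of all loci) and 6 lower (33.4%). Scd1, stearoyl-CoA desaturase, went from 50.5, 38.4, 36.2 and 32.8 to 232, 115, 156 and 107 FPKM (log2 fold change 1.87, SE 0.20, limma adjusted p = 2.4e-08), every induced library being higher. Acly, which makes cytosolic acetyl-CoA, rose from 54.5 ± 3.85 to 102 ± 6.85 and Acsl4, a fatty acid ligase, from 21.5 ± 4.98 to 55.7 ± 5.78. Acss2, which makes acetyl-CoA from acetate, fell from 7.93 ± 1.94 to 2.72 ± 0.506, Fads2, a desaturase, from 109.7 ± 5.13 to 52.3 ± 4.2 and Me1, malic enzyme, from 29.5 ± 4.21 to 15.4 ± 1.77. In cholesterol synthesis and uptake 6 of 17 were called lower (33.4% of all loci) and 1 higher (30.8%). Insig1, a sterol sensor, fell from 43.7 ± 3.02 to 17.4 ± 4.17, Sc5d from 42.9 ± 3.05 to 18.8 ± 1.33 and Sc4mol from 64.1 ± 11.2 to 29.3 ± 3.54, the latter both encoding enzymes of the late pathway, while Hsd17b7 rose from 11.5 ± 1.2 to 28.5 ± 2.72.

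Antiviral genes fell together. Of 52 tested interferon-stimulated genes, 51 were called lower and 0 higher (median -2.27), against 33.4% of all loci called lower. A further 12 members stand at shared, repeated or untested loci and 2 were not listed. At all 51 the libraries of the 2 times did not overlap (28.7% of all loci in that direction), and 49 of the falls were more than 2-fold. The summed FPKM of the list went from 4760 to 5730 per library at 0 h to 1240 to 1720 at 24 h. The 0 h libraries were also closer in time to the transfection, from which the induction cannot be told apart here.

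Isg15, a ubiquitin-like modifier, went from 284, 333, 243 and 298 to 32.8, 26.5, 48.1 and 22.1 FPKM (log2 fold change -3.17, SE 0.42, limma adjusted p = 7.4e-07). Usp18, which removes Isg15 from proteins, fell from 102 ± 12.7 to 9.72 ± 4.29, Zbp1, a sensor of nucleic acids, from 38.7 ± 4.24 to 2.87 ± 0.861, and Ifit1, an antiviral RNA-binding protein, from 110.2 ± 19.1 to 11.8 ± 2.08. Irf7, a factor that drives such genes, fell from 40.2 ± 6.82 to 5.19 ± 3.01. In the 24 h libraries of Isg15 and Usp18, those numbered 1 and 3 were the higher ones, as for Ifit3. The locus shared by B2m, the light chain of MHC class I, and Trim69 fell from 5974 ± 180.1 to 2597 ± 532. During the second day 36 of the 52 fell again, against 17.4% of all loci, and 0 rose, and Ifit3 reached 0.766 ± 0.126 FPKM.

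The genes of this list were chosen as known interferon targets, so a raised share of their site was in part set beforehand. The interferon-stimulated response element, GAAA, any pair of bases and GAAA again on either strand, was in 16 of 37 promoters of these genes (43.2%), against 3.46% of all 27025 genes. Of the genes described, it is shown in capitals for Isg15 at chr4:156200845-156200914 (minus strand), Ifit3 at chr19:34583343-34583412 (plus) and Gbp2, an interferon-induced GTPase gene that fell from 26.3 ± 3.11 to 3.11 ± 0.493 FPKM, at chr3:142620574-142620643 (plus), all on GRCm38.p6. In Isg15 it overlaps further matches in the same stretch, and in Ifit3 and Gbp2 it lies on the opposite strand.
Isg15: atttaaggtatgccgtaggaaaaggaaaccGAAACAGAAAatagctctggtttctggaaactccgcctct
Ifit3: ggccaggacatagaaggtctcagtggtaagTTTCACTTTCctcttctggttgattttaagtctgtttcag
Gbp2: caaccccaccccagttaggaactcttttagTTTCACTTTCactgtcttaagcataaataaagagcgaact

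Chemokines, cytokines and NF-κB genes were lower in 19 of 25 cases (33.4% of all loci) and higher in 5 (30.8%), with a median of -1.32. Cxcl12, the chemokine SDF-1, went from 1790, 2369, 1903 and 2538 to 227, 322, 224 and 364 FPKM (log2 fold change -2.93, SE 0.17, limma adjusted p = 1.5e-12), with no overlap. Cxcl16, another chemokine, fell from 14.9 ± 2.43 to 0.767 ± 0.501. The 5 that rose included, beside Il11, the receptor of IL-33, Il1rl1 (12.6 ± 2.65 to 95.2 ± 14), and Il6 (3.28 ± 1.57 to 9.92 ± 2.54). On the second day these 3 fell again, with log2 fold changes of -2.98, -1.70 and -1.31.

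Complement and acute-phase genes were lower in 10 of 12 tested cases (33.4% of all loci) and higher in 1 (30.8%). A further 8 members stand at shared, repeated or untested loci and 1 was not listed. Saa3, serum amyloid A3, was the most abundant and went from 5270, 9626, 6445 and 10239 to 979, 2398, 1122 and 2558 FPKM (log2 fold change -2.24, SE 0.28, limma adjusted p = 2.6e-07). The libraries numbered 2 and 4 were the higher ones at both times. Serping1, the C1 inhibitor, fell from 79 ± 6.18 to 14.2 ± 1.47 and Cp, ceruloplasmin, from 216 ± 47.1 to 44.1 ± 6.76, while Cd55, which protects cells from complement, rose from 2.17 ± 0.822 to 7.24 ± 1.75. A locus shared by Orm1 and Orm3, orosomucoid genes, is not among the 12 and rose from 12.2 ± 3.96 to 32.8 ± 7.23.

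Genes of the actin cytoskeleton and targets of SRF, a factor that answers actin, were lower in 18 of 27 cases and higher in 2 (median -0.89). The shares of all loci were 33.4% and 30.8%. Acta2 went from 561, 498, 558 and 495 to 53.7, 34.9, 47.9 and 33.7 FPKM (log2 fold change -3.63, SE 0.22, limma adjusted p = 3.1e-12). Myl9, a myosin light chain, went from 48.6, 59.4, 57 and 59.1 to 4.34, 4.31, 4.7 and 5.34 (log2 fold change -3.33, SE 0.22, limma adjusted p = 9.8e-12). Tagln, transgelin, fell from 41.4 ± 2.72 to 5.26 ± 1.2, and Fhl2, a LIM protein, from 78.3 ± 8.06 to 19.7 ± 4.48. Their libraries did not overlap between the times.

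The cytoplasmic actin gene Actb, by contrast, was at 1336, 1426, 1449 and 1391 FPKM at 0 h and 1353, 1477, 1514 and 1429 at 24 h and did not pass (log2 fold change 0.04, SE 0.07, limma adjusted p = 0.603). The 2 members that rose were Tpm4, a tropomyosin of non-muscle cells, and Tagln2, with log2 fold changes of 0.58 and 0.49. The list was chosen to hold known SRF targets, so a raised share of their site was in part set beforehand. The CArG box, the site of SRF, was in 5 of 23 promoters of the list (21.7%) and in 1.62% of all genes. It is in capitals for Myl9 at chr2:156775273-156775342 (plus strand) and for Fhl2 at chr1:43163962-43164022 (minus), on GRCm38.p6.
Myl9: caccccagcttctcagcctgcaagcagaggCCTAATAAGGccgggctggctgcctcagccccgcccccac
Fhl2: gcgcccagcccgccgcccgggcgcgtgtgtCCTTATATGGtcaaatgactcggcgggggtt

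YAP and TAZ targets, which answer cell shape and spreading, were lower in 9 of 13 cases (33.4% of all loci) and higher in 0. Ctgf fell from 5.59 ± 2.18 to 1.25 ± 0.851 FPKM, Axl, a receptor tyrosine kinase, from 244 ± 19.3 to 102 ± 14.6, and Ankrd1 from 1.76 ± 0.489 to 0.0892 ± 0.11.

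**Figure D4:**
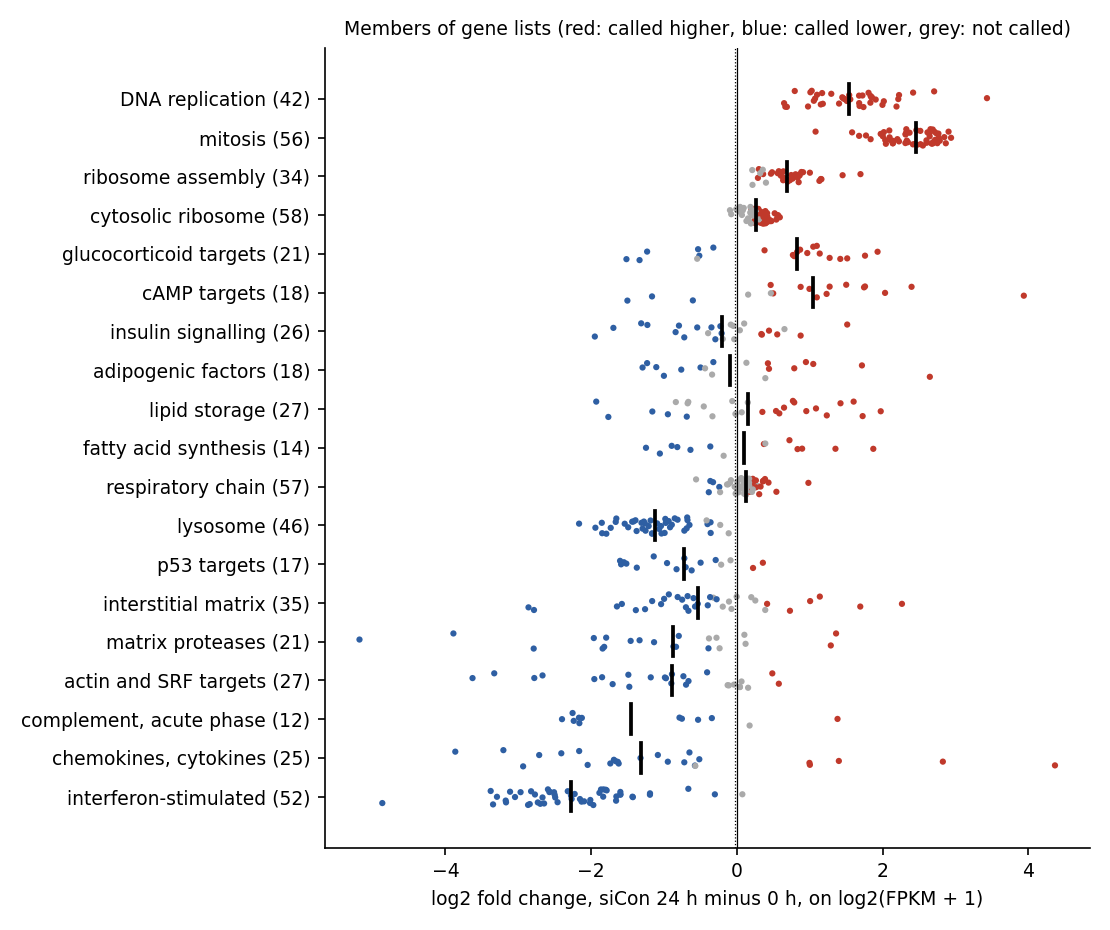
Log2 fold change from 0 to 24 h in siCon cells (x axis) for the members of 19 gene lists (y axis, number tested in brackets), with a dot for each gene (red called higher, blue called lower, grey not called), a black bar for the list's median and a dotted line for the median of all loci (-0.03). Mitosis (2.45) and DNA replication (1.54) have the highest medians and interferon-stimulated genes (-2.27) the lowest.

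Interstitial matrix genes were lower in 21 of 35 cases (33.4% of all loci) and higher in 6 (30.8%), with a median of -0.54. Thbs2, thrombospondin 2, went from 560, 860, 678 and 861 to 83.9, 115, 95.3 and 107 FPKM (log2 fold change -2.86, SE 0.17, limma adjusted p = 2.3e-12), without overlap. Col8a1, a short-chain collagen, fell from 8.47 ± 2.46 to 0.347 ± 0.165 and Tnc, tenascin C, from 10.4 ± 3.36 to 2.58 ± 0.723. Among abundant members, Col1a1, a chain of collagen I, fell from 1687 ± 220.2 to 1117 ± 444 (not without replicate 2 or 4 of 24 h, limma adjusted p = 0.0578 and 0.0646) and Fn1, fibronectin, from 471 ± 23 to 290.3 ± 19.3, while Col3a1 (1022 ± 314 to 991 ± 134) did not pass (limma adjusted p = 0.992). Col1a1 overlapped between the times.

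Among the 6 that rose were genes of collagen VI, a beaded microfibril of the matrix around fat cells. Col6a2 went from 136, 208, 165 and 228 to 653, 1042, 810 and 1059 FPKM (log2 fold change 2.27, SE 0.26, limma adjusted p = 7.2e-08) and Col6a1 from 284, 408, 370 and 439 to 1032, 1335, 1118 and 1353 (log2 fold change 1.69, SE 0.21, limma adjusted p = 2.2e-07), every induced library being higher. Col5a3 also rose, from 10.5 ± 2.27 to 24 ± 2.93. In the basement membrane 8 of 12 genes were called lower (33.4% of all loci) and 2 higher (30.8%). Col4a5, a collagen IV chain, fell from 42.1 ± 3.06 to 5.76 ± 1.05, Lama4, a laminin, from 83.3 ± 15.9 to 35.6 ± 9.12 and Agrn, agrin, from 38.7 ± 2.6 to 21.8 ± 3.07, while Lama5 and Col18a1 rose, to 11 ± 2.64 and 100.3 ± 10.2 from 3.04 ± 0.795 and 51.4 ± 3.89.

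Matrix proteases and their inhibitors were lower in 14 of 21 cases (33.4% of all loci) and higher in 2 (30.8%). Beside Mmp13 and Mmp3, Adamts5, an aggrecanase, fell from 28.5 ± 4.25 to 3.51 ± 1.79 FPKM. The 2 that rose were Timp1, an inhibitor of metalloproteinases, from 216, 271, 207 and 296 to 623, 710, 576 and 621 (log2 fold change 1.36, SE 0.13, limma adjusted p = 6.5e-09), and Adam12, from 10.5 ± 0.614 to 27.2 ± 3.19. Timp1 was back at 211 ± 29.3 FPKM at 48 h. Of 11 integrin subunits 3 were called higher (30.8% of all loci) and 6 lower (33.4%). Itga5, which pairs into the fibronectin receptor, rose from 68.9 ± 9.62 to 267 ± 62.2, with Itgb3 and Itgb7 also higher (1.00 and 0.61), and Itgb2, Itga11 and Itgb5 fell by 2.19, 1.46 and 1.10 on the log2 scale. Itgb7 overlapped between the times.

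Genes of TGF-β and activin signalling were higher in 11 of 26 cases (30.8% of all loci) and lower in 9 (33.4%). Tgfbi, a matrix protein induced by TGF-β, rose from 34.9 ± 3.02 to 77.6 ± 3.52 FPKM and Bambi, a decoy receptor, from 0.535 ± 0.214 to 2.78 ± 0.107. Thbs1, which can activate TGF-β, fell from 258 ± 33.1 to 20.8 ± 1.33, Inhbb, an activin chain, from 5.88 ± 1.94 to 0.363 ± 0.053 and Ltbp2 from 119.5 ± 7.77 to 34.5 ± 4.96. In BMP signalling 6 of 14 were higher (30.8% of all loci) and 5 lower (33.4%). The inhibitors of differentiation Id1, Id2 and Id3 rose, with log2 fold changes of 1.55, 1.39 and 0.96, and the BMP antagonist gene Grem1 and the receptor gene Bmpr2 fell (-1.37 and -0.56). Grem1 overlapped between the times (216 to 551 FPKM at 0 h, 69.4 to 253 at 24 h).

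Wnt genes were lower in 10 of 20 cases (33.4% of all loci) and higher in 5 (30.8%). Wnt4 rose from 0.251 ± 0.0956 to 4 ± 1.82 FPKM and Tcf7l1 from 45.9 ± 6.18 to 85.9 ± 12.8, and Sfrp2, a secreted inhibitor, fell from 38.9 ± 21 to 10.6 ± 4.52, Dkk3 from 6.51 ± 4.33 to 2.3 ± 0.69 and the receptor gene Fzd5 from 3.7 ± 0.548 to 1.36 ± 0.287. Dkk3 overlapped between the times. Hedgehog genes, which the study examined, were higher in 3 of 9 cases and lower in 2, against 30.8% and 33.4% of all loci. All of Gli1, Gli2 and Gli3, the factors of that pathway, rose. Gli3 went from 15.6, 19.6, 18.6 and 16.8 to 21.7, 30.5, 24.1 and 28.1 FPKM (log2 fold change 0.53, SE 0.12, limma adjusted p = 4.9e-04), without overlap, Gli2 from 6.36 ± 1.09 to 12.4 ± 2.59 and Gli1 from 0.066 ± 0.0852 to 1.62 ± 1.03. The co-receptor genes Cdon and Gas1 fell (-0.71 and -0.56). Of 8 Notch genes, 2, Hes1 and Notch3, were higher and 1, Rbpj, was lower, and Notch3 did not pass in 5 of the 8 fits that leave out a library (adjusted p = 0.0533 to 0.127).

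Lysosomal genes fell as a group, with 43 of 46 tested called lower, against 33.4% of all loci, and 0 higher (median -1.13). No member lay above 0, and at all 43 the libraries of the 2 times did not overlap, which held for 28.7% of all loci in that direction. Naglu, which degrades heparan sulfate, went from 107, 106, 97.6 and 117 to 21.5, 28, 20.6 and 22.6 FPKM (log2 fold change -2.17, SE 0.11, limma adjusted p = 2.0e-13). Ctsk, cathepsin K, fell from 139 ± 13.8 to 35.4 ± 3.56 and Neu1, a sialidase, from 38.3 ± 3.46 to 9.98 ± 1.96.

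Abundant lysosomal genes were among them. Lamp1, a main protein of the lysosomal membrane, went from 917, 961, 929 and 959 to 370, 414, 364 and 408 FPKM (log2 fold change -1.28, SE 0.06, limma adjusted p = 2.6e-14), Ctsb, cathepsin B, from 440.3 ± 13.6 to 231 ± 32.9 and Ctsa, cathepsin A, from 584 ± 73.7 to 206 ± 18.2. The summed FPKM of the list was 12800 to 13800 per library before and 6030 to 6640 after the first day. On the second day 8 of the 46 were called higher, against 13.3% of all loci, and 19 lower, against 17.4%. The core of the CLEAR element, TCACGTGA, a site of the factor TFEB, was in 3 of 35 promoters (8.57%) and in 0.907% of all genes. It is in capitals for Ctsa at chr2:164833730-164833772 (plus strand, GRCm38.p6).
Ctsa: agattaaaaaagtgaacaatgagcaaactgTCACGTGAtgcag

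Genes that assemble ribosomes rose in 29 of 34 cases, against 30.8% of all loci, and fell in 0 (median 0.69). Rrp1b went from 6.19, 6.79, 8.1 and 5.74 to 25.4, 24.6, 21.9 and 23.6 FPKM (log2 fold change 1.70, SE 0.18, limma adjusted p = 2.7e-08), with no overlap. Dkc1, which modifies ribosomal RNA, rose from 15.7 ± 2.18 to 45 ± 8.43 and Nop58, a core protein of box C/D particles, from 30.9 ± 2.67 to 70.3 ± 3.16. The proteins of the cytosolic ribosome changed less, with 30 of 58 higher and 0 lower (median 0.26, 51 higher with the replicate number as a block), and their log2 fold changes ran from -0.09 to 0.59. The largest were those of Rplp0, Rpl28 and Rpl22l1 (0.59, 0.57 and 0.55). Genes of ribosomal proteins, like Gapdh and Cycs, have many near-identical pseudogenes, between which reads could be split. Of mitochondrial ribosomal proteins 22 of 54 were higher and 4 lower, with log2 fold changes of 0.98 for Mrpl49, 0.93 for Mrpl18 and 0.74 for Mrpl4 at 1 end and -0.60 for Mrpl54, -0.36 for Mrps9 and -0.33 for Mrps28 at the other.

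Glycolytic genes were higher in 7 of 14 cases (30.8% of all loci) and lower in 3 (33.4%). Gapdh went from 2430, 2582, 2612 and 2566 to 3416, 4362, 3834 and 4381 FPKM (log2 fold change 0.64, SE 0.10, limma adjusted p = 8.3e-06), Pkm2, pyruvate kinase, rose from 1160 ± 92.6 to 1812 ± 293 and Ldha, lactate dehydrogenase, from 886 ± 27.5 to 1361 ± 178, each without overlap. Eno3, Eno2 and Pfkfb3 fell, with log2 fold changes of -1.38, -0.70 and -1.01, though Eno2 overlapped between the times. Of the respiratory chain 15 of 57 were higher (26.3%, against 30.8% of all loci) and 4 lower (7.02%, against 33.4%), with no change over 2-fold. With the replicate number as a block 24 were higher. Cycs, cytochrome c, rose from 67 ± 18.5 to 132 ± 30.3, and Ndufa12 and Cyc1 by 0.54 and 0.43 on the log2 scale, while Ndufa13, Ndufs4 and Ndufa6 fell by 0.38, 0.36 and 0.33. In the TCA cycle and the oxidation of fatty and branched-chain acids, 9 of 36 were higher and 9 lower. Each share, 25.0%, was under that of all loci (30.8% and 33.4%). Pcx, pyruvate carboxylase, rose from 70.5 ± 3.58 to 124 ± 8.54, with Idh3a and Mdh2 (0.40 and 0.40), and Acadl, Bckdha and Acaa2 fell (-0.81, -0.72 and -0.70). On the second day 28 of these 36 and 30 of the 57 respiratory genes were called higher, against 13.3% of all loci.

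Genes of the integrated stress response and tRNA synthetases were higher in 12 of 31 cases (30.8% of all loci) and lower in 7 (33.4%). Shmt2 and Mthfd2, enzymes of mitochondrial folate metabolism, rose from 40.7 ± 4.4 to 99.6 ± 8.66 and from 62.9 ± 4.03 to 123 ± 10.8 FPKM, and Psat1, of serine synthesis, from 117 ± 11.4 to 209 ± 6.51. Ddit3, Nupr1 and Trib3, stress genes of the same list, fell (-1.27, -0.74 and -0.55). The C/EBP-ATF site TGATGCAA was in 5 of 24 promoters of the list (20.8%) and in 0.918% of all genes. Of 26 chaperones of the endoplasmic reticulum 7 were higher (26.9%) and 6 lower (23.1%), both under the shares of all loci (30.8% and 33.4%). Manf, P4hb and Ssr1 stood at 0.50, 0.40 and 0.39 and Herpud1, Sdf2l1 and Sel1l at -0.77, -0.61 and -0.53. Of 19 proteasome subunits 5 were higher (26.3%, against 30.8% of all loci) and 1, Psmd10, was lower (5.26%, against 33.4%). Psmd3, Psmd14 and Psmd12, at 0.31, 0.22 and 0.20, were the largest rises.

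Antioxidant genes were lower in 14 of 28 cases (33.4% of all loci) and higher in 5 (30.8%). Gstm1, a glutathione transferase, went from 98.6, 109, 118 and 111 to 12.6, 17.8, 16.1 and 17.9 FPKM (log2 fold change -2.70, SE 0.11, limma adjusted p = 5.1e-15), Hmox1, heme oxygenase 1, fell from 327 ± 25 to 99.8 ± 6.64 and Gstt1 from 18.1 ± 1.7 to 2.26 ± 0.781. Gclc, which starts glutathione synthesis, rose from 6.98 ± 0.736 to 17.4 ± 1.31, with Srxn1 and Txnrd1 (0.67 and 0.34). Of 15 clock genes 10 were lower (33.4% of all loci) and 3 higher (30.8%). Dbp, Tef and Per3 fell by 2.98, 1.58 and 1.45 on the log2 scale, and Nfil3, a repressor that opposes Dbp, Per1 and Clock rose by 1.75, 1.27 and 0.84.

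Isoforms of 14-3-3 were abundant at both times. Ywhaz, 14-3-3ζ, was at 182, 158, 168 and 154 FPKM at 0 h and 230, 234, 214 and 226 at 24 h, without overlap (log2 fold change 0.45, SE 0.18, limma adjusted p = 0.0386). This rise was near the threshold and did not pass in 7 of the 8 fits that leave out a library (adjusted p = 0.0501 to 0.084), the exception being the fit without 0 h replicate 1. Those fits draw the spread also from the si14-3-3ζ libraries, in which this gene was the target. With only the 8 libraries compared, the rise kept its call. Ywhae and Ywhaq rose by 0.28 and 0.25, and 2 of 5 tested isoforms did not pass.

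The labelled cell type was checked by markers. Of 11 tested markers of pre-adipocytes and fibroblasts, 4 were called higher (30.8% of all loci) and 4 lower (33.4%). A further 4 members were not listed and 2 stand at shared, repeated or untested loci. The 3 that were not called are given first and were chosen after their values were seen. Thy1 (183 ± 55.2 FPKM at 0 h and 231 ± 74.3 at 24 h), Dlk1 (807 ± 102 and 695 ± 118) and S100a4 (2058 ± 431 and 1776 ± 427), markers of pre-adipocytes and fibroblasts, were abundant at both times and did not pass (limma adjusted p = 0.262, 0.145 and 0.374). With the replicate number as a block Thy1 passed as a rise (adjusted p = 0.018). Pdgfra and Pdgfrb, the PDGF receptors, fell from 91.5 ± 26.3 to 52.4 ± 4.63 and from 80.7 ± 3.51 to 34.7 ± 5.28, and Mfap5, a microfibril protein, from 18.8 ± 6.59 to 2.72 ± 1.49, while Pi16, Cd44 and Cd248 rose (1.42, 0.85 and 0.65).

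Of 10 macrophage markers only Cd14 (30.1 ± 3.13 to 9.02 ± 0.656 FPKM) and Lyz2 (7.06 ± 1.88 to 2.04 ± 0.672) were listed, and both fell. Their summed level was 33 to 43.2 FPKM per library at 0 h and 10.5 to 11.3 at 24 h, and the other 8, with the defining Ptprc, Csf1r and Cd68, were not listed. These 2 moved with the chemokine, complement and interferon lists, and their part in those results was not tested. Of endothelial markers only Vwf (at most 2.39 FPKM in any of the 8 libraries) was listed, of muscle markers only Des (at most 6.14) and of epithelial markers only Krt13, while Cdh1, Epcam and Krt19 were not.

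The same first day was sequenced in si14-3-3ζ cells. Those libraries do not enter the siCon fold changes, but both comparisons share the spread of all 24 libraries and so their SE. The targeted gene Ywhaz was at 21.9 to 35.0 FPKM in the si14-3-3ζ libraries at 0 h and 24.1 to 49.7 at 24 h, against 154 to 182 and 214 to 234 in siCon. In si14-3-3ζ cells 2619 loci were called higher (28.3%) and 2954 lower (31.9%). Mitosis genes were higher in 56 of 56 cases (median 2.39), replication genes in 42 of 42 (1.37), and interferon-stimulated genes were lower in 49 of 52 (-1.73) and lysosomal genes in 43 of 46 (-0.90).

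The difference of both responses was tested itself and was called at 132 of the 9251 loci (1.43%), with the response of siCon cells above that of si14-3-3ζ cells at 73 and below it at 59. Ramp3 rose by 5.26 on the log2 scale in siCon and 3.59 in si14-3-3ζ cells (adjusted p of the difference, limma, 0.00158), and Il11 by 4.37 and 2.10 (0.0036). Spon2 rose by 3.71 and 2.06 (0.00758), Egr2 changed by 1.72 and 0.09 (0.00631) and Scd1 by 1.87 and 0.42 (0.00758). The falls of Npy1r (-3.99 and -2.85, 0.00453) and Mamdc2 (-4.92 and -4.21, 0.0299) were larger in siCon cells. Lcn2 went in opposite directions, with -0.53 in siCon cells and 0.81 in si14-3-3ζ cells (0.00247), where it ranged over 520 to 619 FPKM at 0 h and 797 to 1164 at 24 h. With the replicate number as a block 404 loci differed, and with a pseudocount of 0.1 there were 77. This count moved more with the handling of the data than the counts of the first day itself.

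**Figure D5:**
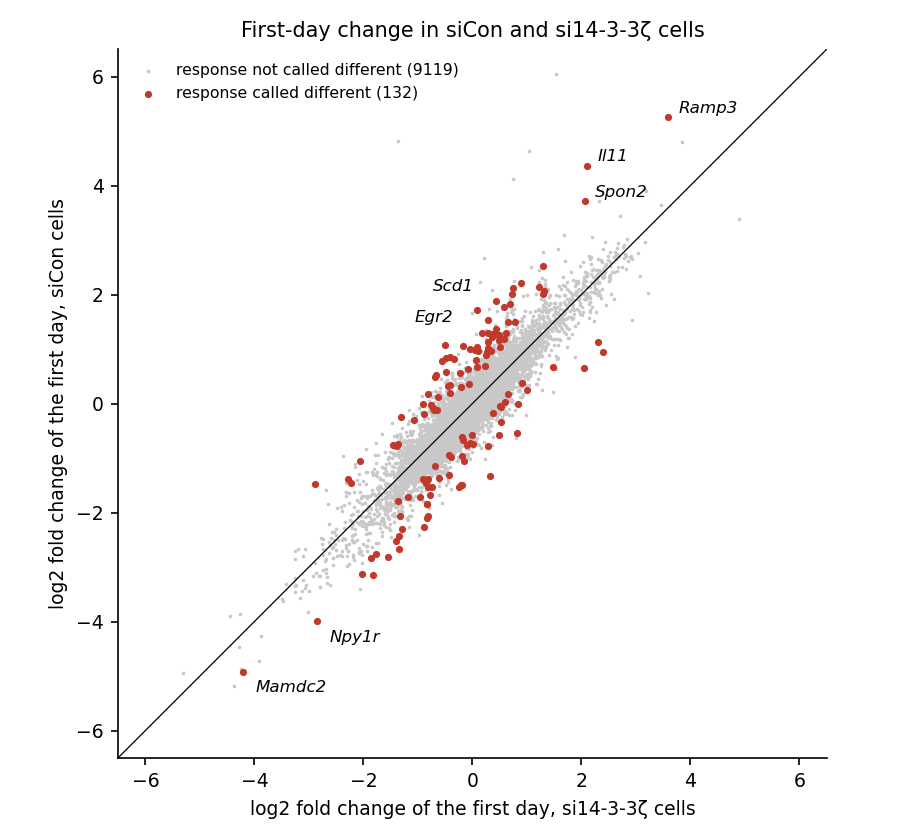
Log2 fold change of the first day in siCon cells (y axis) against that in si14-3-3ζ cells (x axis) for the 9251 tested loci, with the line of equal response. The 132 loci whose response differed are in red, with Ramp3 (5.26 in siCon and 3.59 in si14-3-3ζ cells) the farthest up of these.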

How the data were processed

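RNA of 3T3-L1 cells, 4 libraries for each of 6 groups (siCon and si14-3-3ζ at 0, 24 and 48 h), was sequenced by the authors, who aligned reads with TopHat2 (version 2.0.11) to the Ensembl NCBIM37 genome and estimated expression with Cufflinks (version 2.2.0), as the submitters' processing notes and the study's methods say. The authors deposited 1 FPKM per locus and library, in a table whose header names no unit, so that the unit was taken from the study's description. The kit as described does not mark strand, so a gene and an antisense or overlapping gene cannot be told apart, and the depth of a library cannot be had from FPKM. The time of a library was taken from its label for hours.

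From these values, loci with at least 1 FPKM in at least 4 of the 24 libraries (9251 of 9262) were tested on log2(FPKM + 1) with limma 3.58.1 in R 4.3.3, with 6 group means, a variance trend over mean expression and Benjamini-Hochberg adjustment over all tested loci. A locus was called at an adjusted p under 0.05. No sample was dropped or imputed. Summaries and plots were made in Python 3.11.15 (matplotlib 3.10.9, scipy 1.17.1, pandas 2.3.3, numpy 2.4.6). The fit was checked on simulated data with known changes.

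Genes were matched to 46 lists by symbol, and only loci with 1 symbol that occurs once were used. A total of 575 loci carry several symbols, 134 carry none and 18 symbols stand at several loci. Named in the text are, first, the 12 loci that rose and the 12 that fell most by log2 fold change, out of called loci with 1 symbol, no overlap and a group mean of at least 5 FPKM, predicted genes left out, then up to 3 rises and 3 falls of each list, and Pparg, Cebpa, Cebpb, Cebpd, Ywhaz, Cdkn1b and Gli3 in any case. The following were chosen after their values were seen: Fabp4, Isg15, Ifit1, Irf7, Gbp2, Cdk1, Cdc6, Cdc20, Prc1, Pcna, Mki67, Adipoq, Cd36, Lipe, Mt2, Tsc22d3, Dusp1, Lamp1, Ctsa, Ctsb, Fhl2, Thy1, Dlk1, S100a4, Col1a1, Col3a1, Fn1, Insr, Lcn2, Actb, Cdkn2b and the loci of several symbols other than that of Cebpb, as was the CLEAR motif. Some genes that the rule selects are not reported here. The comparison, the lists and the naming rule were chosen with earlier results of these data known.

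Libraries with the same replicate number deviated together from their group means between 0 and 24 h (r = 0.506, 0.2977, 0.1983 and 0.2815 for numbers 1 to 4, across loci, which are not independent replicates), and each 0 h library correlated best with the 24 h library of its number. What the numbers stand for is given nowhere, so they pair the libraries as a property of the data only. Alternatives changed the pseudocount, the filter, the scaling, the libraries in the fit, the variance trend and the replicate block, or left out each library in turn. Promoters are RefSeq's, build GRCm38.p6, 250 bases before the start of each gene, or 150 as an alternative.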

Additional observations from a re-analysis of the deposited data

Results flagged for a closer look

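At 12 of the genes described, the test of the difference between the first-day response of siCon and of si14-3-3ζ cells passed (limma, all 9251 loci adjusted together). Whether each of them passes under the alternatives was not examined. The siCon response minus the si14-3-3ζ response, on the log2 scale, was 2.27 at Il11, 1.67 at Ramp3, 1.65 at Spon2, 1.63 at Egr2, 1.45 at Scd1, 0.85 at Junb, 0.79 at Hk2, 0.68 at Adam12 and 0.41 at Trp53. It was -0.70 at Mamdc2, -1.14 at Npy1r and -1.35 at Lcn2.

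In 14 of 514 sets of 4 libraries (a gene at 1 time), 1 library lay far from the other 3, against about 1 in 20 that chance flags. Rplp0, a ribosomal protein, was low in replicate 1 at both times, with 1931 FPKM against 2310 to 2370 at 0 h and 2760 against 3490 to 3610 at 24 h. At 0 h, B2m with Trim69 stood at 6243 FPKM in replicate 4 (others 5870 to 5890), Ltbp2 at 131 in replicate 4 (115 to 117), Ywhae at 259 in replicate 3 (210 to 212), Klf6 at 38.3 in replicate 3 (43.7 to 44.6) and Mthfd2 at 56.9 in replicate 2 (64.3 to 65.3). At 24 h, replicate 3 was high for Acly (112, others 97.6 to 100), Cdc6 (9.46, 6.88 to 7.17) and Tgfbi (82.8, 75.4 to 76.0), replicate 1 high for Hsd17b7 (32.5, 26.7 to 27.7) and low for Psmd3 (78.1, 85.3 to 85.8), replicate 2 high for Srxn1 (70.9, 66.7 to 67.3) and replicate 4 low for Gbp2 (2.37, 3.27 to 3.41).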

How the results depend on the processing

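The counts over all loci for the first day stayed within 1.5 times under every alternative run. Of the 257 loci described, 238 kept direction and call of the first day in every alternative, and 15 of the 247 called ones lost that call in at least one. For the difference of responses, the alternatives were only counted over all loci and not examined gene by gene. The replicate block took no call away and gave one to Dlk1 and Thy1. With the block, which uses the pairing of the libraries by number, 404 loci differed in response against 132, 24 respiratory chain genes were higher against 15, and 51 cytosolic ribosomal genes against 30 (46 with the libraries numbered 2 to 4 only, chosen after seeing the data). The count of differing responses was 77 with a pseudocount of 0.1 and 85 at a mean FPKM of at least 5. That filter, which tests fewer loci, left 3 integrins, 6 Wnt genes and 5 clock genes lower and 1 Notch gene higher. The Notch count was also 1 with the libraries numbered 2 to 4, and 1 to 2 when a library was left out. Higher proteasome genes fell to 2 with only the libraries compared or without the variance trend, and lay at 2 to 6 when a library was left out. Quantile normalization moved the median of all loci by 0.0468 on the log2 scale and turned Actb, which did not pass, to -0.12. Col3a1, not passing either, was 0.00 with median-ratio scaling, and -0.18 to 0.16 when a library was left out. The other loci that lost their call without 1 library were Idh3a, Mrps9, Mrps28, Ndufa6, P4hb, Psmd12, Psmd14 and Vwf, with adjusted p of 0.0526 to 0.146 (limma). With 150 bases of promoter in place of 250, motif shares were 20.6% for E2F in replication genes (1.44% of all), 36.4% for CHR (10.5%), 37.8% for the interferon element (1.85%) and 13.0% for the CArG box (1.04%). Depth is unknown here and limits the lowest FPKM most.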
